A study of Trichoderma reesei RUT C-30 with 16 samples.

Results

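The 7 genes described here come from the filamentous fungus Trichoderma reesei: 6 that the study annotates for a role in lipid or sterol metabolism, and csg1, which it annotates as a G-protein-coupled receptor for cellulose sensing and not as an enzyme or carrier of lipids. They were selected by their identifiers in the count tables, which list 10008 genes, and all 7 were among the 9101 genes with enough counts to be tested. They are are2 (TrE0238C), erg3 (TrF1079C), ept1 (TrC1107C), Sec14 (TrG0115C), pldB (TrF0767C), CST26 (TrE0225C) and csg1 (TrG0204C). The study listed them because they passed its limits for differential expression in one strain in these same libraries, so a high share of changed genes among them follows from the choice and is not independent evidence. The strain that passed in the listed comparison was Δres2 for every gene but CST26, which the study lists as passing with DTT in lactose in Rut-C30. The choice thus also favours a larger change in the strain that passed, which is no independent evidence of a strain difference either. In the counts used here CST26 stood at log2 0.96 in its listed comparison, short of the study's limit of a log2 fold change beyond 2. The receptor gene csg1 is described last.

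The study asked whether the transcription factor RES2 acts on protein secretion and secretion stress in Rut-C30, a cellulase hyperproducing strain that served as the reference. The mutant, Δres2, carries a hygromycin resistance cassette in place of res2 in the Rut-C30 background, and 1 transformant was sequenced, so an effect of the deletion and an effect particular to that clone cannot be told apart. Mycelium of each strain grew on glucose and was then fed either glucose (G) or lactose (L), the sugar that induces cellulases, for 48 h per the labels (the methods give a shorter feed). Each culture either served as a control (C) or received 10 mM of the reductant dithiothreitol (DTT, D) for the last 2 h, which gave the conditions GC, GD, LC and LD. RNA was sequenced from 2 replicate cultures of each of the 8 strain and condition groups, 16 libraries in all, with totals of 20351784 to 35679977 counts per library.

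Fungal membranes are built from phospholipids and ergosterol, and both are made largely at the endoplasmic reticulum (ER). Dithiothreitol breaks the disulfide bonds that secreted proteins need to fold there, and the unfolded protein response that follows is known in yeast to enlarge the ER, which needs new membrane lipid. Surplus sterol can be esterified and stored in lipid droplets, and surplus or damaged phospholipid is cleaved by phospholipases.

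All 7 gene models lie on the minus strand, as do 50.8% of all gene models annotated on the chromosomes of strain QM6a, the reference used for counting, and none overlaps another gene model. The sterol O-acyltransferase gene are2 lies on chromosome V from 712532 to 714644 in 3 exons, and CST26 lies 25433 bases away on the same chromosome, from 685627 to 687099 in 4 exons, with 12 gene models between them. The erg3 gene lies on chromosome VI from 3581209 to 3582792 and pldB, in a single exon, on the same chromosome from 2599208 to 2601337. The ept1 gene lies on chromosome III from 3755563 to 3757030, Sec14 on chromosome VII from 327758 to 329221, and csg1 on chromosome VII from 588449 to 590234. Reads were counted over coding sequence only. Levels per coding length, as RPKM (counts scaled by library total and coding length), averaged over the 16 libraries, ran from 5.68 for erg3 to 117 for ept1, that is from percentile 23.1 to percentile 85.5 of all genes tested.

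The spread between replicate cultures depended on the sugar. Over the 7 genes, the higher replicate divided by the lower had a median of 1.5 and reached 5.86 in the glucose groups, whereas it had a median of 1.11 and did not exceed 1.64 in the lactose groups. The correlation of log2 counts between duplicates over all genes was 0.878 to 0.950 in glucose and 0.990 to 0.994 in lactose. One edgeR quasi-likelihood fit over the 16 libraries shares its estimate of the spread over all groups, with a common biological coefficient of variation of 0.355, against 0.494 for the 8 glucose libraries and 0.0711 for the 8 lactose libraries fitted alone. The fits to either sugar alone are given where they change a call. The Rut-C30 glucose libraries also carry library numbers of another series than the 12 other libraries, so a difference in preparation or sequencing would enter the comparisons of lactose with glucose in Rut-C30 and of the strains in glucose, and cannot be told apart from them. The gene with the lowest average strain effect, TrA1112W, picked after its values were seen, had 2900 to 7046 counts in the Rut-C30 libraries and 0 to 2 in the Δres2 libraries; no source used here gives the identifier of res2, so it was not used as a check of the labels.

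**Figure D1:**
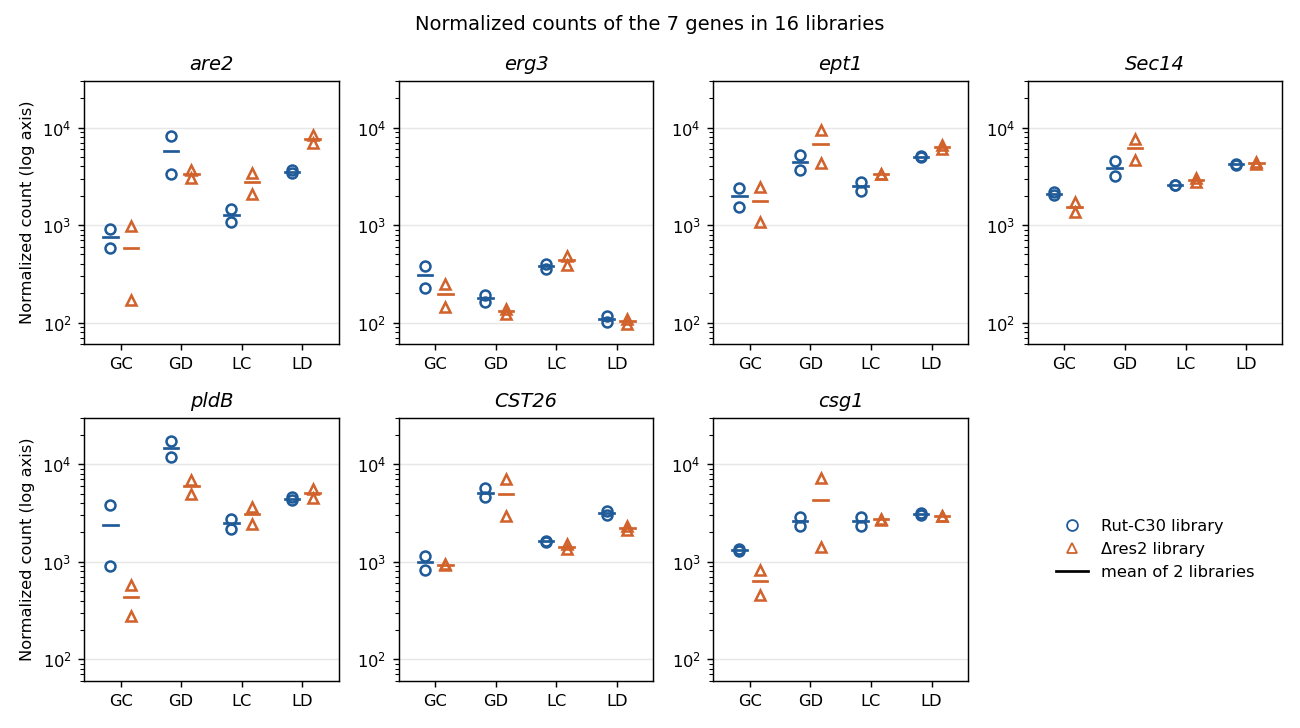
Normalized counts (log axis) of the 7 genes in each of the 16 libraries, by condition (GC and GD, glucose without and with DTT; LC and LD, lactose without and with DTT). Circles are Rut-C30 libraries, triangles Δres2 libraries and bars the mean of 2 libraries. In 6 panels every DTT library lies above every control of the same sugar, whereas erg3 falls with DTT; glucose duplicates lie farther apart than lactose duplicates, by up to 5.86-fold for are2 in Δres2 GC.

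Exposure to DTT changed the transcript level of all 7 genes in glucose: are2, ept1, Sec14, pldB, CST26 and csg1 rose and erg3 fell, as the mean of both strains. In lactose are2, ept1, Sec14 and CST26 rose and erg3 fell; whether the responses differed between the sugars was tested separately, and the difference passed for pldB, CST26 and erg3 only. Of all genes tested, 24.8% rose and 29.8% fell with DTT in glucose, and 27.1% rose and 30.3% fell in lactose (adjusted p under 0.05), so a DTT response in itself was common in these libraries. The median log2 fold change of the 7 genes was 1.86 in glucose and 0.78 in lactose, beside -0.08 and -0.06 over all genes.

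The sterol genes moved in opposite directions. The are2 gene encodes a sterol O-acyltransferase, the enzyme that in yeast esterifies sterols for storage in lipid droplets. In Rut-C30 its normalized counts were 920 and 576 in GC against 8259 and 3332 in GD, and in Δres2 they were 169 and 987 in GC against 3669 and 3063 in GD. In lactose they were 1065 and 1470 in LC against 3439 and 3643 in LD for Rut-C30, and 2072 and 3406 in LC against 8376 and 7023 in LD for Δres2. Within each sugar every DTT library lay above every control library of both strains. The rise was 6.72-fold in glucose (log2 2.75 ± 0.49 SE, adjusted p = 7.87e-04) and 2.80-fold in lactose (log2 1.49 ± 0.47, adjusted p = 0.0182). The glucose rise passed the test whichever library was left out, but without Δres2 GC replicate 2, the high control of that group, it was 12.4-fold (log2 3.63). The lactose rise did not pass without Rut-C30 LC replicate 1 (log2 1.38, adjusted p = 0.0672) or without Δres2 LC replicate 1 (log2 1.33, adjusted p = 0.0703).

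The erg3 gene is annotated by the study as a putative C-14 sterol reductase, a late step of ergosterol synthesis; it is named after erg-3 of Neurospora crassa, whereas the ERG3 gene of Saccharomyces cerevisiae encodes another enzyme of the pathway, a sterol desaturase. It was the least abundant of the 7. Its normalized counts in lactose were 352 and 401 in LC against 101 and 117 in LD for Rut-C30, and 392 and 479 against 109 and 96 for Δres2. The 4 DTT libraries did not overlap the 4 controls, and the fall was 3.82-fold (log2 -1.93 ± 0.23, adjusted p = 4.90e-05); it passed the test whichever library was left out. In glucose its counts were 226 and 382 in GC against 164 and 193 in GD for Rut-C30, and 247 and 144 in GC against 138 and 122 in GD for Δres2. DTT lay below control within each strain, but the Δres2 control of 144 lay under both Rut-C30 DTT libraries. The smaller fall in glucose (log2 -0.68 ± 0.23, adjusted p = 0.0261) did not pass in the fit to the glucose libraries alone (log2 -0.59, adjusted p = 0.207), nor without Rut-C30 GC replicate 2 (log2 -0.41, adjusted p = 0.173), Rut-C30 GD replicate 1 (log2 -0.62, adjusted p = 0.0793) or Δres2 GC replicate 1 (log2 -0.39, adjusted p = 0.153).

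Among the phospholipid genes, ept1 encodes a putative ethanolaminephosphotransferase, which in yeast makes phosphatidylethanolamine from diacylglycerol in the last step of the Kennedy pathway. In glucose its normalized counts were 2405 and 1548 in GC against 5175 and 3671 in GD for Rut-C30, and 1069 and 2455 against 4337 and 9363 for Δres2. In lactose they were 2210 and 2777 in LC against 5094 and 4944 in LD for Rut-C30, and 3325 and 3351 against 6086 and 6554 for Δres2. No DTT library overlapped a control of the same sugar. The level rose 2.95-fold in glucose (log2 1.56 ± 0.31, adjusted p = 0.00144) and 1.95-fold in lactose (log2 0.97 ± 0.30, adjusted p = 0.0177). The lactose call was lost without Rut-C30 LC replicate 1 (log2 0.89, adjusted p = 0.0656), Δres2 LC replicate 1 (log2 0.97, adjusted p = 0.0518) or Δres2 LC replicate 2 (log2 0.97, adjusted p = 0.051).

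The Sec14 gene encodes a putative phosphatidylinositol transfer protein; the yeast protein of that name exchanges phosphatidylinositol and phosphatidylcholine between membranes and is needed for transport from the Golgi. Its normalized counts in glucose were 2020 and 2187 in GC against 4549 and 3161 in GD for Rut-C30, and 1376 and 1723 against 7669 and 4625 for Δres2. In lactose they were 2570 and 2562 in LC against 4266 and 4148 in LD for Rut-C30, and 2754 and 3075 against 4440 and 4209 for Δres2. The lactose duplicates of this gene nearly coincided, and no DTT library overlapped a control of the same sugar. The rise was 2.7-fold in glucose (log2 1.43 ± 0.19, adjusted p = 1.11e-04) and 1.56-fold in lactose (log2 0.64 ± 0.18, adjusted p = 0.0116), and both passed the test whichever library was left out.

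The pldB gene encodes a putative phospholipase D, the kind of enzyme that cleaves phosphatidylcholine to phosphatidic acid and choline. Its normalized counts in glucose were 3848 and 896 in GC against 11970 and 17167 in GD for Rut-C30, and 279 and 584 against 5007 and 6957 for Δres2. This was the widest range of the 7 genes, from 279 in a Δres2 control to 17167 in a Rut-C30 DTT library, and the rise was 9.23-fold (log2 3.21 ± 0.43, adjusted p = 1.28e-04), or 15.5-fold (log2 3.95) without Rut-C30 GC replicate 1. In lactose the counts were 2174 and 2771 in LC against 4253 and 4610 in LD for Rut-C30, and 3676 and 2465 against 4541 and 5534 for Δres2. The DTT libraries again lay above the controls, but the difference of log2 0.78 ± 0.40 did not pass the test (adjusted p = 0.114); in the fit to the 8 lactose libraries it did (log2 0.78 ± 0.16, adjusted p = 0.00447), where 87.2% of all genes tested were called.

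CST26 encodes a putative acyltransferase whose orthologue in Candida albicans has a role in phospholipid synthesis. Its normalized counts in glucose were 831 and 1135 in GC against 5653 and 4597 in GD for Rut-C30, and 938 and 929 against 7031 and 2915 for Δres2. In lactose they were 1590 and 1651 in LC against 3277 and 3028 in LD for Rut-C30, and 1346 and 1519 against 2318 and 2122 for Δres2. The groups did not overlap in either sugar. CST26 rose 5.27-fold in glucose (log2 2.40 ± 0.25, adjusted p = 2.34e-05) and 1.74-fold in lactose (log2 0.80 ± 0.24, adjusted p = 0.0138); the lactose call was just lost without Δres2 LC replicate 1 (log2 0.76, adjusted p = 0.0505).

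The receptor gene csg1 had normalized counts in glucose of 1361 and 1293 in GC against 2897 and 2351 in GD for Rut-C30, and of 461 and 819 against 7151 and 1416 for Δres2. One Δres2 GD library was thus 5.05 times the other, and the rise of log2 1.86 ± 0.39 (3.64-fold, adjusted p = 0.0022) passed whichever library was left out. Its size depended on that high library, and without Δres2 GD replicate 1 the rise was 2.18-fold (log2 1.13). In lactose the counts were 2338 and 2858 in LC against 3138 and 3033 in LD for Rut-C30, and 2771 and 2672 against 2917 and 2931 for Δres2. The difference there was 1.13-fold, log2 0.18 ± 0.38 (adjusted p = 0.708). The fit to the lactose libraries alone put the same small difference past the threshold (log2 0.18 ± 0.06, adjusted p = 0.012).

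Over both sugars the count of libraries gives the same picture with its background. In glucose 6 of the 7 genes had all 4 DTT libraries above all 4 controls, against 17.6% of all genes tested. In lactose 6 were separated upwards, against 36.8% of all genes, and erg3 was separated downwards, against 39.4%. The fit to the 8 glucose libraries alone called the 6 rises (31.7% of all genes were called there in either direction), and the fit to the 8 lactose libraries called all 7 genes, where 87.2% of all genes were called.

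The response to DTT was smaller in lactose than in glucose for pldB and CST26, and for erg3 the fall was larger in lactose. The difference LD/LC minus GD/GC, as the mean of both strains, was log2 -2.43 ± 0.57 for pldB (adjusted p = 0.0269), -1.60 ± 0.33 for CST26 (adjusted p = 0.0168) and -1.26 ± 0.32 for erg3 (adjusted p = 0.0404). These 3 of 7 genes were called lower, against 3.79% of all genes tested. The other 4 genes had values in the same direction that did not pass: -1.69 ± 0.54 for csg1 (adjusted p = 0.0863), -0.79 ± 0.26 for Sec14 (adjusted p = 0.0935), -1.26 ± 0.65 for are2 (adjusted p = 0.284) and -0.60 ± 0.42 for ept1 (adjusted p = 0.449). Within a single strain the difference was -1.78 in Rut-C30 and -3.08 in Δres2 for pldB, -1.42 and -1.78 for CST26, and -1.02 and -1.49 for erg3, and none of these passed alone (adjusted p = 0.0973 to 0.396).

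The calls on this difference were lost without some libraries and kept without others. Leaving out either LD replicate of either strain, Rut-C30 LC replicate 2 or Δres2 LC replicate 2 left none of the 7 genes past the threshold, and leaving out Rut-C30 LC replicate 1, Δres2 LC replicate 1 or Rut-C30 GD replicate 2 left 1. Without Δres2 GD replicate 2 Sec14 stood at log2 -0.94 and csg1 at -2.05. The sizes themselves moved little for CST26 (log2 -1.84 to -1.26) and for erg3 (-1.53 to -1.08), and pldB ran from -3.17 without Rut-C30 GC replicate 1 to -2.13 without GC replicate 2. DESeq2 called 5 genes, adding Sec14 (adjusted p = 0.0201) and csg1 (adjusted p = 0.0158), beside 14% of all genes in either direction.

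**Figure D2:**
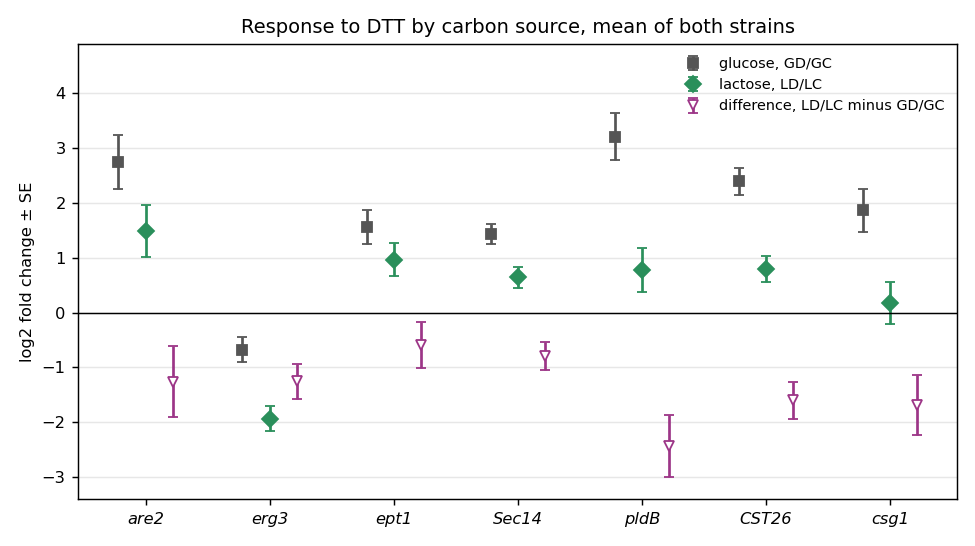
Log2 fold change ± SE with DTT for the 7 genes, as the mean of both strains, in glucose (squares, GD/GC), in lactose (diamonds, LD/LC) and as their difference (open triangles), from the fit over 16 libraries. All genes but erg3 lie above 0 in both sugars, pldB drops from 3.21 in glucose to 0.78 in lactose, and erg3 goes from -0.68 to -1.93.

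Within each strain taken alone, DTT in glucose raised are2 (log2 2.95 in Rut-C30 and 2.54 in Δres2), Sec14 (0.87 and 1.99), pldB (2.62 and 3.79) and CST26 (2.38 and 2.41) in both. These were 4 genes of 7 in Rut-C30, where 34.5% of all genes were called, and 6 in Δres2, where 41.3% were. The other 2 called in Δres2 were ept1 (log2 1.96, adjusted p = 0.0055, beside 1.16 and adjusted p = 0.0566 in Rut-C30) and csg1 (log2 2.74, adjusted p = 0.00387, beside 0.98 and adjusted p = 0.183). Single libraries moved several of these sizes while the calls stayed. In Rut-C30 the pldB value was 4.07 without GC replicate 1 and 2.00 without GC replicate 2. In Δres2 without GC replicate 2 the values were 4.32 for are2, 2.68 for ept1 and 4.42 for pldB, and without GC replicate 1 are2 stood at 1.84. Without Δres2 GD replicate 1 csg1 stood at 1.20 and CST26 at 1.69, and without GD replicate 2 csg1 stood at 3.48 and ept1 at 1.29. A gene past the threshold in one strain only is not shown to differ between strains, and the test of the difference itself is given with the strain comparison. The calls were fewer with the glucose libraries alone, 1 gene in Rut-C30 (CST26, 6.73% of all genes called) and 3 in Δres2 (Sec14, pldB and CST26, 11.2% called). In Rut-C30 the calls of are2 and Sec14 were both lost without GC replicate 2 (log2 2.74 and 1.02) or GD replicate 1 (log2 2.16 and 0.59), and that of Sec14 also without GC replicate 1 (log2 0.87, adjusted p = 0.0821).

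In lactose the strains alone gave log2 -1.79 in Rut-C30 and -2.08 in Δres2 for erg3, both past the threshold (adjusted p = 0.00163 and 7.82e-04). Sec14 (log2 0.71, adjusted p = 0.0478) and CST26 (log2 0.96, adjusted p = 0.0398) passed in Rut-C30 only, where 41.4% of all genes were called, and in Δres2, where 40.9% were, their values were 0.57 and 0.63. Both Rut-C30 calls were lost whichever of the 4 Rut-C30 lactose libraries was left out, which left erg3 alone. The fit to the lactose libraries called all 7 genes in Rut-C30 (82.2% of all genes called) and all but csg1 in Δres2 (81.1%).

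Lactose feeding without DTT went with higher levels of 4 of the 7 genes than glucose feeding, against 8.04% of all genes tested that were higher: pldB (log2 1.45 ± 0.40, adjusted p = 0.0332), csg1 (1.53 ± 0.39, adjusted p = 0.0225), erg3 (0.73 ± 0.23, adjusted p = 0.0497) and Sec14 (0.60 ± 0.18, adjusted p = 0.0486), as the mean of both strains. The other 3 had values above 0 that did not pass: 1.5 ± 0.47 for are2 (adjusted p = 0.0512), 0.67 ± 0.24 for CST26 (adjusted p = 0.078) and 0.63 ± 0.30 for ept1 (adjusted p = 0.173). DESeq2 called 6 genes, adding are2 (adjusted p = 0.00491) and CST26 (adjusted p = 0.0205), beside 22.7% of all genes in either direction. The are2 value also passed with DESeq2 size factors in edgeR (adjusted p = 0.0439) and with all genes that had a count (adjusted p = 0.0445), where erg3 did not (adjusted p = 0.0507). By libraries, all 4 LC values lay above all 4 GC values for are2, Sec14, CST26 and csg1, against 14.4% of all genes, and overlapped them for erg3, ept1 and pldB. For pldB the overlap came through Rut-C30, where the GC libraries of 3848 and 896 stood on either side of the LC libraries of 2174 and 2771.

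These 4 calls were close to the threshold. None was left without either LC replicate of either strain, and 1 was left without Rut-C30 GC replicate 1 (pldB, at log2 2.21) or Δres2 GC replicate 1 (erg3). Without Δres2 GC replicate 2, whose are2 count of 987 stood above the 169 of its duplicate, are2 stood at log2 2.39 and ept1 at 0.99, and erg3 stood at 0.56.

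Taken by strain, the values were larger in Δres2 for all of the 7 genes but CST26, a split that the choice of the genes favours. For pldB the log2 difference was 2.83 ± 0.60 in Δres2 (adjusted p = 0.0219) and 0.06 ± 0.56 in Rut-C30. In Δres2 pldB was the 1 gene called, against 6.12% of all genes, and in Rut-C30 none was, against 3.47%. None of the 7 was at an unadjusted p under 0.05 in Rut-C30, beside 18.2% of all genes, and DESeq2 called none of them there. The are2 values were 2.25 and 0.76, those of csg1 2.09 and 0.97 and those of erg3 1.15 and 0.31 for Δres2 and Rut-C30. The pldB call in Δres2 was lost without Δres2 GC replicate 1 (log2 2.49), LC replicate 1 (log2 2.51) or LC replicate 2 (log2 3.09). The pldB value was log2 3.46 without Δres2 GC replicate 2. DESeq2 called 5 genes in this comparison, beside 12.5% of all genes. The LC/GC and GD/GC comparisons share their GC libraries, so a low value there raises both.

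With DTT in both sugars CST26 was the 1 gene of 7 that differed between lactose and glucose past the threshold, lower in lactose by log2 -0.93 ± 0.24 (adjusted p = 0.0265), against 8.01% of all genes tested that were lower. Its levels were 2122 to 3277 in LD and 2915 to 7031 in GD. The call was lost without Rut-C30 GD replicate 1 and without each LD library in turn. Without Δres2 GD replicate 1 the CST26 value was -0.53, and csg1 stood at log2 0.66, opposite in sign to its value over all libraries. The other values were -0.98 ± 0.40 for pldB, -0.53 ± 0.23 for erg3 and between -0.19 and 0.24 for Sec14, csg1, ept1 and are2. For erg3 all 4 LD libraries (96 to 117) lay below all 4 GD libraries (122 to 193), against 11.5% of all genes. Within a strain none of the 7 was called in Rut-C30 (3.33% of all genes were) or in Δres2 (2.77%); at an unadjusted p under 0.05 there were 2 of 7 in Rut-C30, beside 17.7% of all genes, and 1 of 7 in Δres2, beside 21.3%. For pldB the value was -1.72 ± 0.57 in Rut-C30 and -0.25 ± 0.56 in Δres2, and DESeq2 called the first (adjusted p = 0.0366, 8.82% of all genes called). For CST26 it was -0.70 ± 0.33 and -1.16 ± 0.34, and DESeq2 called the second (adjusted p = 0.0187, 10.9% called). The are2 values were -0.71 ± 0.65 in Rut-C30 and 1.19 ± 0.66 in Δres2.

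**Figure D3:**
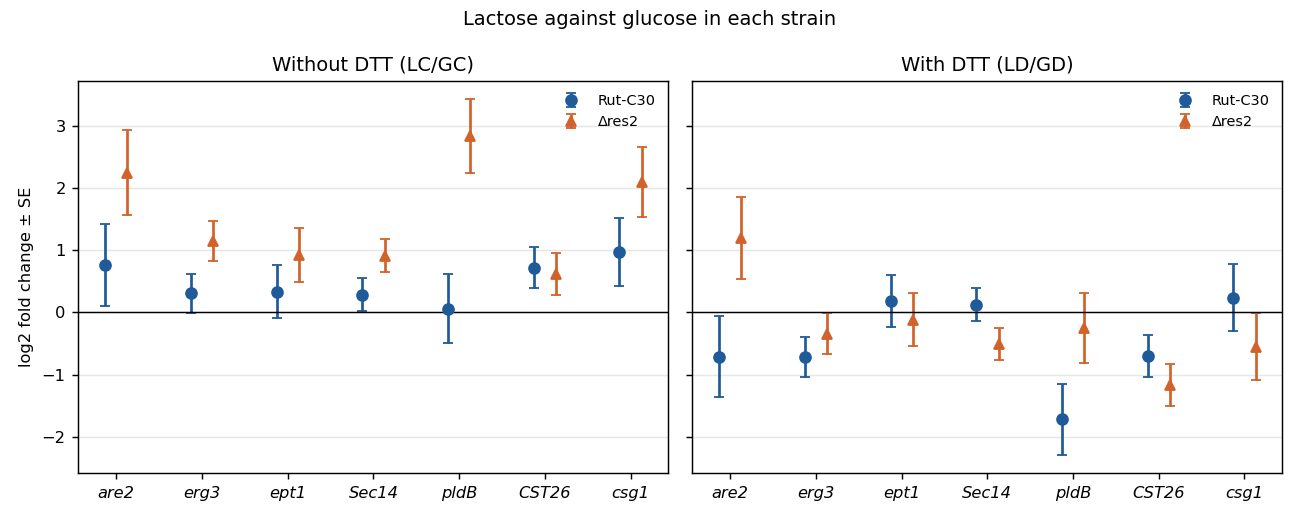
Log2 fold change ± SE of lactose against glucose for the 7 genes in Rut-C30 (circles) and Δres2 (triangles), without DTT (LC/GC, left) and with DTT (LD/GD, right). Without DTT pldB stands at 0.06 in Rut-C30 and 2.83 in Δres2, and the bars of the strains lie closer together for CST26; with DTT the values run from -1.72 (pldB in Rut-C30) to 1.19 (are2 in Δres2).

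No difference between the strains passed the test for any of the 7 genes in the fit over 16 libraries, in any condition, as an average or in any response. This holds against few calls among all genes: 0.033% in GC, 0.0549% in GD, 0.022% in LC, 0.011% in LD and 0.044% for the average over conditions. Unadjusted p-values under 0.05 were found for 1 of the 7 in GC (pldB, beside 6.29% of all genes), 2 in GD (Sec14 and pldB, beside 11.3%), none in LC or LD (beside 1.44% and 1.52%) and 1 for the average (pldB, beside 9.56%). Of these 5 tests DESeq2 called pldB in GC, where it called 0.582% of all genes, and no other. The averages over conditions ran from log2 -0.81 ± 0.28 for pldB to 0.30 ± 0.21 for ept1.

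For pldB the Δres2 controls in glucose, at 279 and 584, lay below the Rut-C30 controls at 3848 and 896. The difference was log2 -2.46 ± 0.59 (adjusted p = 0.552), and DESeq2 gave -2.45 ± 0.57 (adjusted p = 0.00736). It was log2 -3.12 without Rut-C30 GC replicate 2 and -3.09 without Δres2 GC replicate 2. Without Rut-C30 GC replicate 1, the high library, the value was -1.05. Averaged over GC and GD, a comparison added after the data were seen, pldB was lower in Δres2 by log2 -1.87 ± 0.41 (adjusted p = 0.17). DESeq2 called that average (-1.85 ± 0.40, adjusted p = 0.00155) as the 1 gene of 7, beside 2.91% of all genes, against 0.044% in edgeR, where 2 of the 7 were at an unadjusted p under 0.05 beside 13.1%. The average ran from -2.20 without Rut-C30 GC replicate 2 to -1.16 without Rut-C30 GC replicate 1. With DTT the Δres2 libraries were again the lower ones (5007 and 6957 against 11970 and 17167, log2 -1.28 ± 0.57, adjusted p = 0.42), whereas in lactose the strains overlapped (log2 0.31 in LC and 0.18 in LD). The LC/GC response of pldB thus differed between the strains by log2 2.77 ± 0.80 (adjusted p = 1). The study listed pldB for passing its limits in this response in Δres2 only. A low value in Δres2 GC and a larger response in Δres2 are therefore favoured by the choice. Only 0.011% of all genes were called in that test, and pldB joined them without Rut-C30 GC replicate 2 (log2 3.45, adjusted p = 0.0451), whereas its value was 1.38 once Rut-C30 GC replicate 1 was left out.

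The GD/GC response was larger in Δres2 by log2 1.11 ± 0.37 for Sec14 (adjusted p = 0.907) and by 1.76 ± 0.77 for csg1 (adjusted p = 0.907), with 0 genes of all tested called by edgeR (474 at an unadjusted p under 0.05, 5.21% of all genes) and 0 of the 7 by DESeq2. Without Δres2 GD replicate 2 the values were log2 1.43 for Sec14 and 2.49 for csg1, while without Δres2 GD replicate 1 they were 0.69 and 0.15. The study listed Sec14, csg1 and ept1 for passing its limits in this response in Δres2 only, so this direction is favoured by the choice. For ept1, the other gene called with DTT in glucose in Δres2 and not in Rut-C30, the strain difference in the response was 0.80 ± 0.60 (adjusted p = 0.94). For CST26 it was 0.03 ± 0.47 in glucose and -0.33 ± 0.47 in lactose (adjusted p = 0.997 and 1).

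The study listed are2 for LC/GC in Δres2 and CST26 for LD/LC in Rut-C30. A high are2 value in Δres2 LC and a high CST26 value in Rut-C30 LD are thus favoured by the choice. Strain differences in ept1 and CST26 passed in the fit to the 8 lactose libraries. There ept1 was higher in Δres2 in LC (3325 and 3351 against 2210 and 2777, log2 0.41 ± 0.09, adjusted p = 0.00899), as the 1 gene of 7 called there, against 13.9% of all genes. In LD 2 of 7 were called, against 13.3%: ept1 was higher (log2 0.38 ± 0.09, adjusted p = 0.0131) and CST26 lower (2318 and 2122 against 3277 and 3028, log2 -0.46 ± 0.08, adjusted p = 7.40e-04). The largest of these differences was that of are2, with 2072 and 3406 in Δres2 LC against 1065 and 1470 in Rut-C30 LC and with 8376 and 7023 against 3439 and 3643 in LD, but it did not pass in either condition (log2 1.10 ± 0.29, adjusted p = 0.0802, and 1.16 ± 0.28, adjusted p = 0.0646).

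Averaged over LC and LD, a comparison added after the data were seen, 3 of 7 genes were called in the lactose libraries, against 22.3% of all genes. The are2 gene was higher in Δres2 by log2 1.13 ± 0.20 (adjusted p = 0.0196) and ept1 by 0.39 ± 0.07 (adjusted p = 5.63e-04), and CST26 was lower by log2 -0.33 ± 0.06 (adjusted p = 6.05e-04). The choice favours these directions for are2 and CST26, so their calls are no independent evidence of a strain difference. For are2 and ept1 all 4 Δres2 lactose libraries stood above the Rut-C30 libraries of the same condition, beside 11.6% of all genes, and for CST26 all stood below, beside 16.8%. The are2 call was lost without Rut-C30 LC replicate 1 (log2 1.02, adjusted p = 0.0576), Rut-C30 LD replicate 1 (log2 1.11, adjusted p = 0.0739), Rut-C30 LD replicate 2 (log2 1.16, adjusted p = 0.0608) or Δres2 LD replicate 1 (log2 1.06, adjusted p = 0.068), and those of ept1 and CST26 were kept whichever lactose library was left out. No strain difference in the LD/LC response was called for the 7 genes, beside 3.94% of all genes; the nearest was CST26, with log2 -0.27 ± 0.11 (adjusted p = 0.242). In glucose the are2, ept1 and CST26 libraries of the strains overlapped in both conditions.

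**Figure D4:**
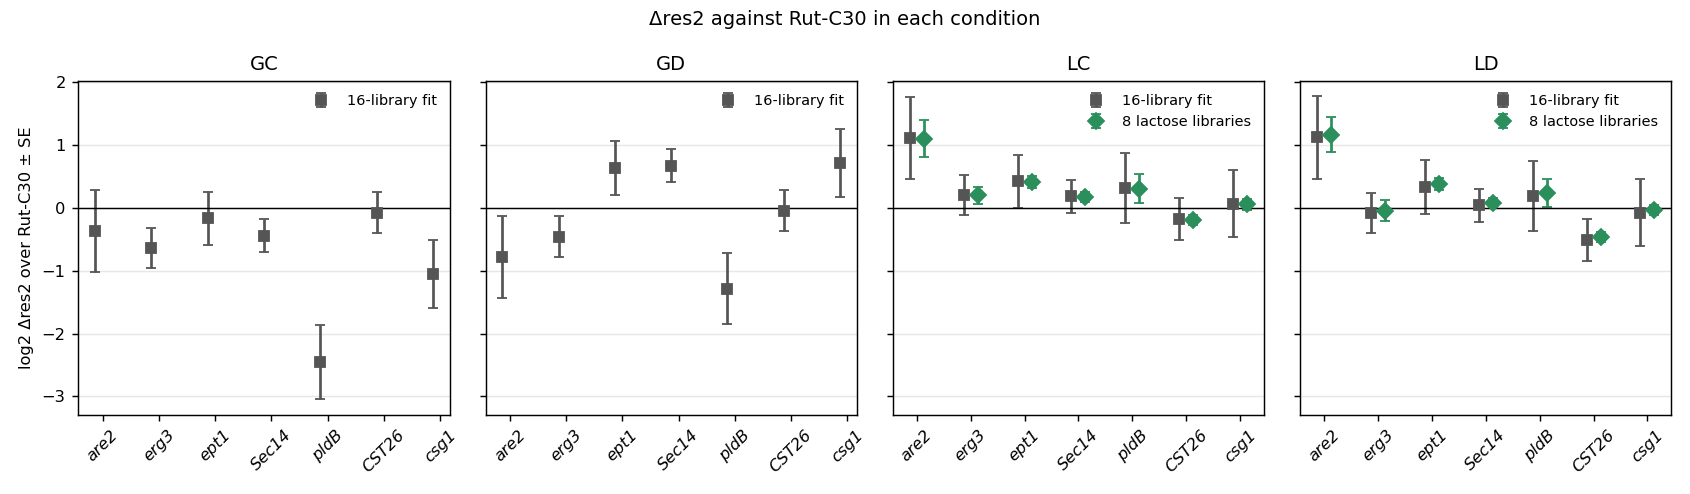
Log2 ratio of Δres2 over Rut-C30 ± SE for the 7 genes in each condition, from the fit over 16 libraries (squares) and, for LC and LD, from the fit to the 8 lactose libraries (diamonds). In GC pldB stands lowest at -2.46; in LC and LD are2 stands highest at 1.11 and 1.12 and the diamonds have the shorter bars.

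The study's gene ontology tables give genes under lipid metabolic process, and 32 of these were read and tested here; the copy used was cut short within that entry, so the 32 are part of the list. Of the 7 genes ept1 is among them. All had been chosen by the study as regulated in these libraries, so their counts describe them and support nothing. With DTT all 32 were higher in glucose (median log2 2.47), and 29 were higher in lactose (median log2 1.85). The 7 fatty acid biosynthesis genes among them had a median of 2.84 in glucose and 3.33 in lactose, and the 9 phospholipid biosynthesis genes had 2.54 and 1.05. The 3 sterol biosynthesis genes, which do not include erg3, had 2.12 and 0.28, with 1 of 3 called in lactose. Lactose against glucose without DTT gave 7 higher and 2 lower of 32, the DTT response was called smaller in lactose for 5, and no strain average was called.

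Apart from the gene ontology lists, 4 other genes of the study's gene list from which the 7 were taken were followed as lipid genes, of which TrC0883C is also among the 32. The polyketide synthase gene pks2 (TrD0448W) is in that gene list and among the 32 too, but was not followed singly. TrB0858W, annotated as a sterol glucosyltransferase, an enzyme that attaches glucose to sterols, had normalized counts of 504 to 1604 in the 4 GC libraries and of 22 to 50 in the 4 LC libraries, with no overlap. This was log2 -4.61 ± 0.41 (adjusted p = 9.84e-05), opposite in sign to the values of the 7 genes. With DTT it rose by log2 1.21 in glucose (adjusted p = 0.0122) and by 3.17 in lactose (adjusted p = 5.24e-05), and its response was larger in lactose by 1.96 ± 0.50 (adjusted p = 0.0413), again opposite in sign to the 7 values. The phospholipase E gene ple (TrD0987W) stood at 379 to 1284 in GC and at 3663 to 5158 in LC (log2 2.59 ± 0.40, adjusted p = 0.00195). With DTT ple rose in glucose (log2 1.56, adjusted p = 0.00555) and fell in lactose (log2 -1.43, adjusted p = 0.00788), and its difference between the sugars was -2.99 ± 0.54 (adjusted p = 0.0088). TrA1225C, annotated for phospholipid translocation, rose with DTT in glucose (log2 1.71, adjusted p = 0.00495) and lactose (log2 1.45, adjusted p = 0.0106), as did the lipase or serine esterase gene TrC0883C (log2 1.74, adjusted p = 0.00198, and 1.57, adjusted p = 0.00319).

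Among themselves, the 6 genes that rose with DTT had pairwise Pearson correlations of log2 normalized counts between 0.60 (ept1 and csg1) and 0.90 (are2 and ept1) over the 16 libraries, and erg3 had -0.65 (ept1) to -0.18 (csg1) with them. These describe libraries that share their conditions and depth. The genes most like each member over the 16 libraries were TrE0849W for are2 (r = 0.947), TrE1186W for erg3 (0.948), TrF0076C for ept1 (0.959), TrE0937C for Sec14 (0.970), TrF1105C for pldB (0.937), TrC1233W for CST26 (0.961) and TrG0868C for csg1 (0.929). Above a correlation of 0.9 there were 9 genes for pldB and 11 for csg1, and 56 to 65 for are2, ept1, Sec14 and CST26. None of the 7 was among the genes most like another.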

How the data were processed

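The authors prepared stranded libraries from polyadenylated RNA, aligned the reads to the QM6a genome with STAR 2.7.8a, removed reads that matched more than once and counted the rest over coding sequence with HTSeq 0.5.3 and a custom annotation; the deposited values are these raw counts per gene, not normalized, and the authors' own normalization with DESeq2 1.8.1 was not used. Here the counts were filtered with filterByExpr, scaled by trimmed mean of M-values factors and fitted with edgeR 4.0.16 (limma 3.58.1, R 4.3.3) as 8 group means over 16 libraries. Quasi-likelihood p-values were adjusted by Benjamini-Hochberg over the 9101 genes tested, and a call means an adjusted p under 0.05. A fold change is the mean of the strains unless a strain is named, and SE is the log2 fold change divided by the root of the F statistic. Normalized counts are counts scaled to the mean effective library size. Correlations used log2 normalized counts with a prior count of 0.5.

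Groups and replicate numbers came from the labels, and the replicates are separate cultures. No pair of replicates was a repeated library. The rule for named genes was the 7 identifiers, for each the genes with the highest correlation, 4 other lipid genes of the study's gene list and its lipid gene ontology lists. Members and lists were chosen with earlier results of these data known. A list of lipid genes by product was not made, since no annotation of products was at hand, and no sequence is shown. Alternatives were DESeq2 1.42.0, its size factors in edgeR, all genes with a count, a replicate block, either sugar alone, the study's limits (adjusted p under 0.005, log2 fold change beyond 2, mean of 100 normalized counts) and leaving out each library. Leaving out a library leaves its group without a duplicate, so such a fit takes its spread from the other groups. The procedures were also run on simulated counts, which had the same spread in all libraries of a fit. They were thus not checked under the unequal spread of the glucose and lactose libraries. Figures were drawn with matplotlib.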

Additional observations from a re-analysis of the deposited data

Results flagged for a closer look

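Genes were marked for a closer look where the effect of DTT differed between lactose and glucose by the test of the difference itself. This held for erg3 (log2 -1.26), pldB (log2 -2.43) and CST26 (log2 -1.60), each as lactose minus glucose. For pldB and CST26 the value is a smaller rise in lactose, and for erg3 a larger fall. The glucose duplicates of pldB in Rut-C30 GC stood 4.30-fold apart and those of CST26 in Δres2 GD 2.41-fold. The pldB value was -3.17 without Rut-C30 GC replicate 1 and -2.13 without replicate 2, and the CST26 value was -1.26 without Δres2 GD replicate 1 and -1.84 without replicate 2. No gene of the 7 had every library of one strain moving one way and every library of the other strain the opposite way in the same response. Groups of 2 libraries allow no search for outlying libraries.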

How the results depend on the processing

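The directions of the 7 genes with DTT in each sugar and of lactose against glucose without DTT did not change under any alternative run, as the mean of both strains. By the study's limits the calls fell from 7 to 3 for DTT in glucose, from 5 to 0 in lactose, from 4 to 0 for LC/GC and from 1 to 0 for LD/GD. The share of all genes that passed those limits is not shown here, so these counts cannot be set against a background. DESeq2 raised the calls from 3 to 5 for the difference of the DTT responses, from 0 to 1 for the strains in GC and for their mean over GC and GD, from 4 to 6 for LC/GC, from 0 to 1 for LD/GD in either strain, from 1 to 2 for LD/LC in Δres2 and from 1 to 5 for LC/GC in Δres2. For that last comparison DESeq2 size factors gave 3 and all genes with a count gave 2. With lactose libraries alone the calls went from 3 to 7 (Rut-C30) and from 1 to 6 (Δres2) for LD/LC, and from 0 to 1 in LC, 2 in LD and 3 for their mean between strains; with glucose libraries alone GD/GC calls went from 4 to 1 (Rut-C30) and from 6 to 3 (Δres2). The cause of these shifts was not tested, beyond the spread of each fit given in the report.

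With 1 library left out, a number of calls is named as changed if it moved by more than a factor of 1.5, or to or from 0. Leaving out 1 library at a time changed the number of calls for DTT in lactose, LC/GC, LD/GD and the difference of the DTT responses. Between strains it changed that number in GC, in GD, for the mean of both and for the GD/GC, LC/GC and LD/GD responses. Within strains it changed for GD/GC and LD/LC in Rut-C30 and for LC/GC and LD/GD in Δres2. Smaller moves in the number were seen for DTT in glucose and for GD/GC in Δres2. The strain average over LC and LD in the lactose libraries also moved less than that. Signs changed for values that lay near 0 over all libraries, though not all stayed near 0 once a library was left out. These were LD/GD of are2 (log2 -0.0082 to 0.64), ept1 (-0.18 to 0.37), Sec14 (-0.34 to 0.030) and csg1 (-0.52 to 0.66). The strain averages of are2 (-0.18 to 0.47) and csg1 (-0.47 to 0.094), and LC/GC of pldB in Rut-C30 (-0.55 to 1.51), were the others.

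The replicate numbers were not treated as pairs: the deviations of same-numbered libraries correlated above 0.1 in 5 of 28 pairs of groups, with a range of -0.256 to 0.615. Whether the numbers pair the libraries within some of the groups was not tested. A replicate block took LC/GC from 4 calls to 2, with adjusted p = 0.0659 for erg3 and 0.0622 for Sec14, and took the difference of the DTT responses of erg3 to adjusted p = 0.0562 and Sec14 in Rut-C30 LD/LC to 0.058; it changed no other call given here. Depth did not leave any of the 7 genes near 0 counts in any library, and each group had 2 cultures.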
